A study of Mus musculus with 2 samples.

Results

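Sycp1, Sycp2, Sycp3, Hormad1, Smc1b, Dmc1, Stag3, Rec8, Spo11 and Mei1 encode proteins of the meiotic chromosome axis and of meiotic recombination. These 10 genes were taken by symbol, and 8 of them were among the 13253 genes assigned to a methylated region in any of the 4 tables. Each region (peak) was counted 1 time per gene and table, and promoter peaks were separated from peaks elsewhere. A promoter peak was one that the deposited annotation placed across a transcript's start or over all of it, or at most 1 kb upstream. The material was the ventricular and subventricular zone (V/SVZ), rich in neuronal progenitors, and the cortical plate (CP), rich in neurons that are differentiating, both hand-dissected from ICR mouse embryos at embryonic day 16. Neither tissue had a genetic change or treatment on its label, and the number of embryos behind a library was not stated. Methylated genomic DNA was captured with a methyl-binding kit and sequenced, with 1 library per tissue, so no difference below has replicate error and no test between the tissues was possible. No RNA was measured, so the tissue labels could not be checked against marker genes.

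In meiosis, homologous chromosomes are organised on a protein axis built from cohesin and axial element proteins, are cut by a dedicated enzyme, and are joined by the synaptonemal complex while the breaks are repaired. These proteins are made in germ cells. In somatic tissue many such germline genes are silent, and CpG-rich promoters among them are known to be methylated by the DNA methyltransferases around implantation and to stay so. The E2F family and E-box binding proteins, as parts of a Polycomb-type repressor complex, are known to mark a share of these promoters in mouse embryonic cells.

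The listed peaks held 1000061 V/SVZ tags (aligned reads) in 52283 peaks over control and 1710134 CP tags in 53404 peaks. No total of sequenced tags per library was available here. Both control lists stop at a lowest fold over local background, 11.48 in V/SVZ and 14.71 in CP, so a gene without a listed peak may hold a weaker one. All fold, score and false discovery values are the peak caller's, as deposited by the authors. Intervals around tag ratios are exact binomial 95% intervals. They cover counting error only, and reads without molecular identifiers are not independent molecules.

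Reference promoters of the members show how many CpG sites, the target of methylation and of the capture, lay around their starts. RefSeq windows of 300 bases, 250 before and 50 from the transcript start on (build GRCm38.p6), matched 9 members, all but Spo11. The deposited peaks are in mm9, and the 2 builds were not aligned. A set of 6 windows is printed 5' to 3' on the gene's strand with every CpG in capitals: first 4 members with a peak at the start in both libraries (3 synaptonemal complex and axis genes and the cohesin gene with the largest such peak), then 2 with no promoter peak for comparison.

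Sycp1, chr3:102936051-102936350, minus strand: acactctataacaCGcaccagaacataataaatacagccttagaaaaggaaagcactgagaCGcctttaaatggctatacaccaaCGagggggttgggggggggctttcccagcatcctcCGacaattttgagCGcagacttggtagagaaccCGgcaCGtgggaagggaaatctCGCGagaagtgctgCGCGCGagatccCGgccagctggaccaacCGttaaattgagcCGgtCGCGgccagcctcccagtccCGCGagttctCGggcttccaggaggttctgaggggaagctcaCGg
Sycp2, chr2:178407609-178407908, minus strand: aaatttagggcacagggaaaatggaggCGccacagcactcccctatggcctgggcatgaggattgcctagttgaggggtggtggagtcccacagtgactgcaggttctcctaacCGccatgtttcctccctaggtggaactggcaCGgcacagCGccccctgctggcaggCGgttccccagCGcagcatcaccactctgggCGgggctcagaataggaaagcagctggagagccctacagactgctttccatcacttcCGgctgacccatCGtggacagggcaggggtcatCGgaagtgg
Hormad1, chr3:95559427-95559726, plus strand: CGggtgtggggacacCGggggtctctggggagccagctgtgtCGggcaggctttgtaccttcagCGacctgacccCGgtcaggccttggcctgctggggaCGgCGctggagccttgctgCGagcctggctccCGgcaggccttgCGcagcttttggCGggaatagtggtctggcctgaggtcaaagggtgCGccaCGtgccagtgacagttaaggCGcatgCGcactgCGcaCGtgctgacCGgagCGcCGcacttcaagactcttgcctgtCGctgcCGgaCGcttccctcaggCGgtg
Smc1b, chr15:85131908-85132207, minus strand: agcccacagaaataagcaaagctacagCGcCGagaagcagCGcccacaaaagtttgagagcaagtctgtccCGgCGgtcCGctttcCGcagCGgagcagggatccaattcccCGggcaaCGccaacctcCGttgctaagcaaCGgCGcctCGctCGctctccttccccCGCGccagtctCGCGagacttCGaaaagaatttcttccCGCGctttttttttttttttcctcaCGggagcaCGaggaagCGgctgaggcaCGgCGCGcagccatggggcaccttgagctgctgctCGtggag
Stag3, chr5:138280259-138280558, plus strand: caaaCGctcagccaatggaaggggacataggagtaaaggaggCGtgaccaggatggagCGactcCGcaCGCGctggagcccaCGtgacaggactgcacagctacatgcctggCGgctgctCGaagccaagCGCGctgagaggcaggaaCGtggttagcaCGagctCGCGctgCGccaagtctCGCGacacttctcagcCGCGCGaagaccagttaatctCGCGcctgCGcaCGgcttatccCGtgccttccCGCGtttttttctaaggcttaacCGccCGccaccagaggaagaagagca
Sycp3, chr10:88459337-88459636, plus strand: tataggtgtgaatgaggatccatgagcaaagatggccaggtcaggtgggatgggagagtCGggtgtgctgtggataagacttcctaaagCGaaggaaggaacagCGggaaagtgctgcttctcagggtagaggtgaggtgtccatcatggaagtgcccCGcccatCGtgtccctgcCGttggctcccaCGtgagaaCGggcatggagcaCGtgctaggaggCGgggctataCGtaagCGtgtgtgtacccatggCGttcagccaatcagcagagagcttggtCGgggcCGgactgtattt

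The 9 windows held a median of 18 CpG sites, beside 7 over 27025 promoters, 1 window per gene. Stag3 had 30 CpG sites, Smc1b 29, Hormad1 24, Sycp1 21, Rec8 and Dmc1 18 each, Sycp3 15, Sycp2 10 and Mei1 8. CpG number did not order the members by methylated tags: Stag3, with the most sites, had no promoter peak, and Sycp2, with fewer sites than all but Mei1, had one of the largest. The letters CACGTG, an E-box, stood in 4 of the 9 windows (Hormad1 and Sycp3, 2 copies each, and Sycp1 and Stag3), beside 7.24% of all promoters. In Sycp1 the E-box began 94 bases before the start, and in Sycp3 the copies began 64 and 43 bases before it. The letters TCCCGC, found within E2F-type sites, were searched on both strands and stood in 7 of the 9, all but Sycp2 and Mei1, beside 20.02% of all promoters. In Smc1b they began 47 bases before the start. All 4 windows with the E-box also held TCCCGC, beside 2.05% of all promoters with both. The members with both sets of letters included Sycp1 and Hormad1, which had promoter peaks, and Sycp3 and Stag3, which had none. These are descriptions of letters and not of binding.

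Of the 10 members, 8 had at least 1 peak over control within 10 kb in each library. Such peaks are common: 13194 genes had one in either tissue, and RefSeq holds 21896 protein-coding genes. The share over all genes was not computed, so the count of 8 is not read as a result about the members. Promoter peaks were listed for 5 members in V/SVZ (Sycp1, Sycp2, Hormad1, Rec8 and Spo11) and for 7 in CP (the same 5 with Smc1b and Dmc1). Among all 13194 genes with a listed control peak in either tissue, 5.11% had a promoter peak in V/SVZ and 6.5% in CP. On the autosomes, where all members lie, the shares were 4.34% and 4.58%. Among 21896 RefSeq protein-coding genes they were 2.91% and 3.74%. Germline genes were known from earlier results on these libraries to carry promoter peaks, so the members' counts are no independent evidence of it. No peak was assigned to Sycp3, an axial element protein, or to Mei1, a protein needed for meiotic DNA breaks, in any of the 4 tables.

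**Figure D1:**
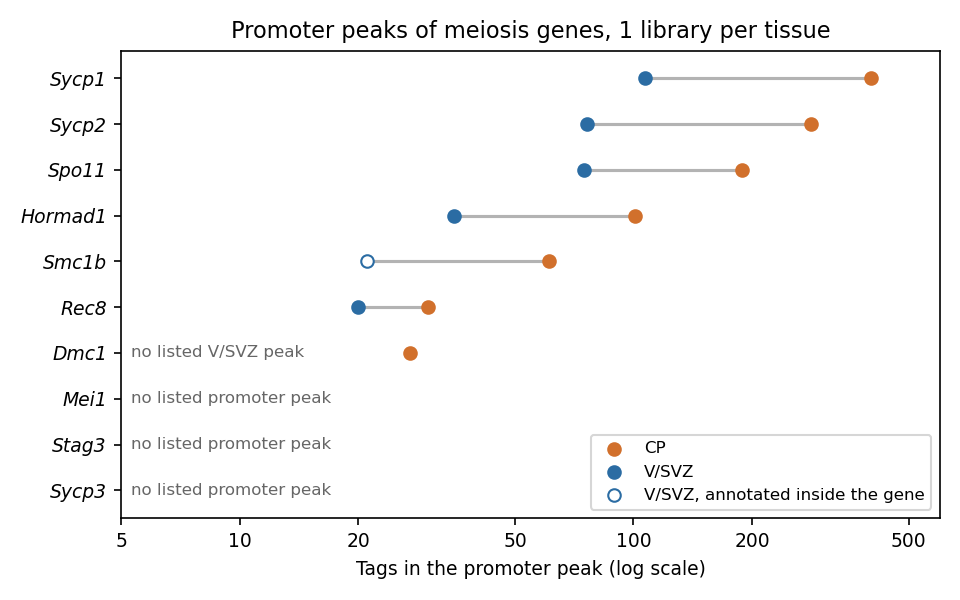
Tags in the promoter peak of each member (log axis), V/SVZ in blue and CP in orange, 1 library each, with a grey line joining the values of a gene. Sycp1 is highest in both libraries (107 and 401 tags), the V/SVZ peak of Smc1b (21 tags, open circle) is annotated inside the gene, and Sycp3, Stag3 and Mei1 have no listed promoter peak.

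Sycp1 and Sycp2, both of the synaptonemal complex, carried the largest promoter peaks among the members. Sycp1 (gene ID 20957) encodes the transverse filament that bridges the paired axes. Its promoter peak had 107 V/SVZ tags (chr3:102739181-102740146, mm9) and 401 in CP (chr3:102739192-102740243). By tags it was number 24 of 544 listed autosomal promoter peaks in V/SVZ and number 8 of 577 in CP. Such ranks, here and below, hold among the listed control peaks only, and large peaks of low fold can be missing from these lists. Its fold in CP, 16.63, was close to the lowest fold listed; fold is measured against the local background of each peak.

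Sycp2 (gene ID 320558) encodes an axial element protein. Its promoter peak held 76 tags in V/SVZ (chr2:178141626-178142717) and 283 in CP (chr2:178141646-178142755), numbers 47 and 12 by tags. The deposited distances place the Sycp2 start at position 178142363, so the peaks extended 354 and 392 bases past it upstream, with most of their length inside the gene. A peak further upstream of Sycp2, at 5518 bp in V/SVZ and 5638 bp in CP, held 41 and 57 tags. It was also a promoter peak of another gene, 9030418K01Rik, and lay inside Ppp1r3d.

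Hormad1 (gene ID 67981) encodes a HORMA domain protein of the unsynapsed axis. Its promoter peak held 35 tags in V/SVZ (chr3:95362993-95364316) and 101 in CP (chr3:95363086-95364168), numbers 132 and 108 by tags. It was the only peak within 10 kb of Hormad1 in either control list. All 3 genes thus had a promoter peak of at least 966 bp in both libraries, against median lengths of 355 bp in V/SVZ and 378 bp in CP over all peaks.

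The meiotic cohesin genes were uneven. Smc1b (gene ID 140557) encodes the meiotic form of a cohesin arm subunit. At its start the V/SVZ peak held 21 tags (chr15:84961805-84962329) and the CP peak 61 (chr15:84961880-84962397). The start lies at position 84962387 by the deposited distances, so the V/SVZ peak ended 58 bases short of it and was annotated inside the gene, whereas the CP peak reached 10 bases past it. The shared stretch was 450 bp, and the absence of Smc1b from the V/SVZ promoter count rests on these few bases.

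A second Smc1b region further upstream, at 1506 bp in V/SVZ and 1217 bp in CP, held 24 and 62 tags, about as many as the peak at the start. Rec8 (gene ID 56739) encodes the meiotic kleisin, the closing subunit of cohesin. Its promoter peak held 20 tags in V/SVZ (chr14:56236648-56237184) and 30 in CP (chr14:56236620-56237333), numbers 229 and 290 by tags. The largest peak near Rec8 was not at its promoter but downstream, inside the importin gene Ipo4, with 41 V/SVZ tags at 8395 bp and 116 CP tags at 7853 bp.

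Stag3 (gene ID 50878), a meiotic cohesin subunit, had no promoter peak in any table. Its nearest peak lay 1894 bp upstream in V/SVZ (10 tags) and 1977 bp upstream in CP (13 tags), inside the neighbouring gene Gpc2. The other Stag3 peaks were downstream in CP, with 9 and 8 tags. Every peak near Stag3 was thus below the CP median of 17 tags and, in V/SVZ, the median of 11.

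Among the recombination genes, Spo11 (gene ID 26972) encodes the topoisomerase-like enzyme that cuts DNA in meiosis. Its promoter peak held 75 tags in V/SVZ (chr2:172805136-172805811) and 189 in CP (chr2:172805113-172805783), numbers 50 and 47 by tags. Per kb of peak these were 111 and 282 tags, the same density as the Sycp1 promoter in V/SVZ (111) and below it in CP (381). The peak was annotated to 3 Spo11 transcripts and counted here as 1. Dmc1 (gene ID 13404), the meiotic strand-exchange recombinase, had a CP promoter peak of 27 tags (chr15:79434872-79435886) and no listed V/SVZ peak there. With 27 tags over 1015 bp it was the sparsest of the members' promoter peaks in CP.

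**Figure D2:**
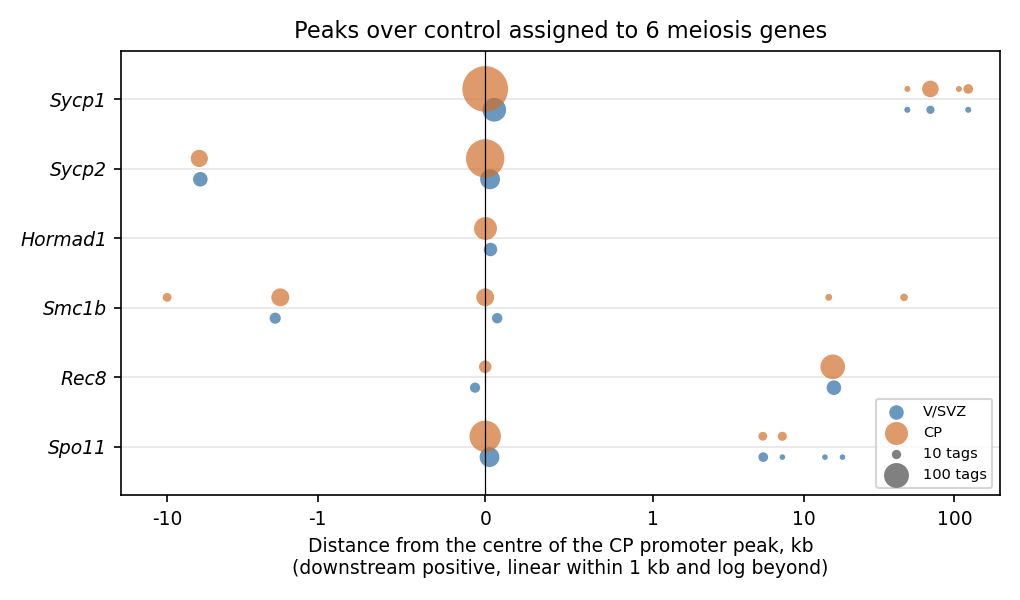
Peaks over control assigned to 6 members, by distance in kb from the centre of the CP promoter peak in the direction of transcription (linear within 1 kb, log beyond), V/SVZ in blue and CP in orange, with symbol area proportional to tags. The promoter peak is the largest for Sycp1, Sycp2, Hormad1 and Spo11, while for Rec8 the downstream peak (41 and 116 tags) is larger and for Smc1b the nearer upstream peak (24 and 62 tags) is of like size.

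Over the members together, promoters held most of the methylated tags. In V/SVZ 5 of the 18 member peaks were promoter peaks and held 313 of 520 tags (60.2%). In CP 7 of 22 did, with 1092 of 1508 tags (72.4%). Over all peaks assigned to genes, promoter peaks were 2.35% of peaks and 3.15% of tags in V/SVZ, and 3.13% and 5.48% in CP. Sycp1 and Sycp2 supplied 183 of the 313 V/SVZ and 684 of the 1092 CP promoter tags. Promoters held the smaller share in CP at Smc1b (38.6%) and Rec8 (20.5%), and Stag3 had none. Peaks inside member genes were few and small: 6 in V/SVZ with 72 tags in all, from 4 genes, and 7 in CP with 118 tags, from 3 genes.

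The body peaks were in Sycp1, Spo11, Smc1b and Dmc1. Sycp1 had a body peak of 13 tags in V/SVZ and 53 in CP (chr3:102670082-102670652) another of 7 tags in each library, and a CP peak of 7 tags with no V/SVZ partner. Spo11 had body peaks of 18 and 15 tags (chr2:172810640-172810992 in CP) and of 6 and 16 tags. Body peaks of Smc1b, apart from that at its start, were listed in CP only (11 and 9 tags), and that of Dmc1 in V/SVZ only (7 tags). All peaks listed in 1 library only held 6 to 27 tags, the Dmc1 promoter being the largest. The lowest listed fold was higher in CP than in V/SVZ, so a peak may be missing from a list for its fold alone. Of the members' V/SVZ peaks 15 of 18 overlapped a CP peak (83.3%, beside 64.5% over all V/SVZ peaks), and of their CP peaks 15 of 22 overlapped a V/SVZ peak (68.2%, beside 62.9%).

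CP held more tags than V/SVZ at each of the 6 member starts with a peak in both libraries. The ratio of CP to V/SVZ tags was 3.75 at Sycp1 (95% interval 3.02 to 4.68) and 3.72 at Sycp2 (2.88 to 4.86). It was 2.90 at Smc1b (1.74 to 5.02), 2.89 at Hormad1 (1.95 to 4.37), 2.52 at Spo11 (1.92 to 3.34) and 1.5 at Rec8 (0.824 to 2.79). The Rec8 interval includes 1, so its tags did not differ beyond counting error. These raw ratios contain any difference in depth between the libraries. The median ratio was 1.81 over 32326 autosomal CP peaks that overlapped a V/SVZ peak and 2.25 over 378 autosomal peaks that were promoter peaks in both.

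Relative to 1.81, the intervals of Sycp1, Sycp2, Hormad1 and Spo11 lay above the reference, and those of Smc1b and Rec8 included it. That reference took in 4334 peaks with 7 to 10 CP tags and 8726 with 11 to 20, whose ratios are held low as set out below. Over shared peaks with 101 to 200 CP tags, the class of Hormad1 and Spo11, the median was 2.41. The intervals of both genes include it. The members with a promoter peak in both lists, 5 without Smc1b, had a median ratio of 2.89. A ratio of at least 2 times 1.81 was reached by 2 of these 5, Sycp1 and Sycp2, and by 16.7% of the 378 promoter peaks and 8.9% of all shared autosomal peaks. Against 2 times the promoter median of 2.25, none of the 5 did. Relative to the promoter median, only the intervals of Sycp1 and Sycp2 lay wholly above.

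The ratio also moved with the number of CP tags, which are its own numerator. A listed V/SVZ peak held at least 6 tags, so a small CP peak could not reach a high ratio. The low medians of the small classes are thus partly fixed in advance. The median was 1.00 over shared autosomal peaks with 7 to 10 CP tags, 2.41 over those with 101 to 200 and 2.21 over those with 201 or more. Among the 675 peaks of the last class, 45 (6.67%) had a ratio at least as high as Sycp1 and 48 (7.11%) as Sycp2. Hormad1 was reached by 33.2% and Spo11 by 45.6% of the 1917 peaks with 101 to 200 CP tags. Smc1b was reached by 33.1% of 4954 peaks with 51 to 100 CP tags, and Rec8 by 77.6% of 11720 peaks with 21 to 50. Set among peaks of like CP tags and by raw tags, Sycp1 and Sycp2 were thus high, Smc1b and Hormad1 in the upper part, Spo11 near the middle and Rec8 below it. The place of Hormad1 depends on the measure. In tags per kb its ratio was 3.53, beside 3.44 at Sycp1 and 3.66 at Sycp2. Its peak was 1324 bp long in V/SVZ and 1083 bp in CP.

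**Figure D3:**
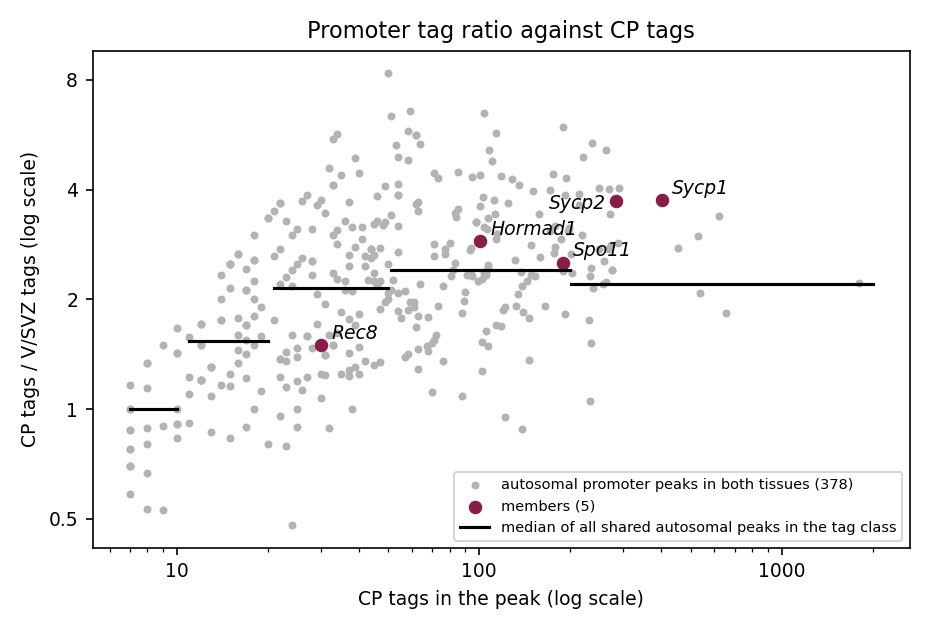
CP to V/SVZ tag ratio against CP tags (both log axes) at 378 autosomal promoter peaks listed in both tissues (grey) with 5 members (dark red). Black lines are the medians of all shared autosomal peaks by class of CP tags, and Sycp1 (3.75) and Sycp2 (3.72) lie above them while Spo11 (2.52) is close to and Rec8 (1.5) below its class.

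Within a gene, the interval at the promoter did not overlap that of a body peak in Spo11 and of the upstream region in Sycp2. In Sycp1, Smc1b and Rec8 the intervals overlapped. Overlap of intervals is no test of a difference between 2 ratios, and none was made. The median ratio was 1.54 over shared autosomal peaks with 11 to 20 CP tags, and 2.41 with 101 to 200. The lower of these is partly fixed by the least V/SVZ tag count of 6, so it is context only. In Spo11 the promoter ratio was 2.52, whereas the first body peak had 18 V/SVZ and 15 CP tags, a ratio of 0.833 (0.391 to 1.75), and the intervals did not overlap. The interval of the second Spo11 body peak, with a ratio of 2.67 (0.991 to 8.32), did overlap. In Sycp2 the promoter ratio was 3.72 and that of the upstream region 1.39 (0.914 to 2.13), again without overlap. In Sycp1 the body peak of 53 CP tags had a ratio of 4.08 (2.19 to 8.15), beside the promoter's 3.75. The smallest shared body peak of Sycp1 had a ratio of 1.00 (0.299 to 3.34), and its interval overlapped that of the promoter only in part. At Smc1b the upstream region had a ratio of 2.58 (1.59 to 4.33), beside 2.90 at the start. At Rec8 the downstream region had 2.83 (1.97 to 4.14), beside 1.5, with overlapping intervals at both genes. The peaks of these 2 regions differed in length, 607 bp in CP and 316 bp in V/SVZ at Smc1b, and 1026 and 499 bp at Rec8. In tags per kb their ratios were 1.34 and 1.38, beside 2.94 at the Smc1b start and 1.13 at the Rec8 promoter. The 9 shared regions away from the members' own promoters, of which the Sycp2 upstream region is also a promoter peak of 9030418K01Rik, had a median ratio of 2.57, with a range of 0.833 to 4.08.

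**Figure D4:**
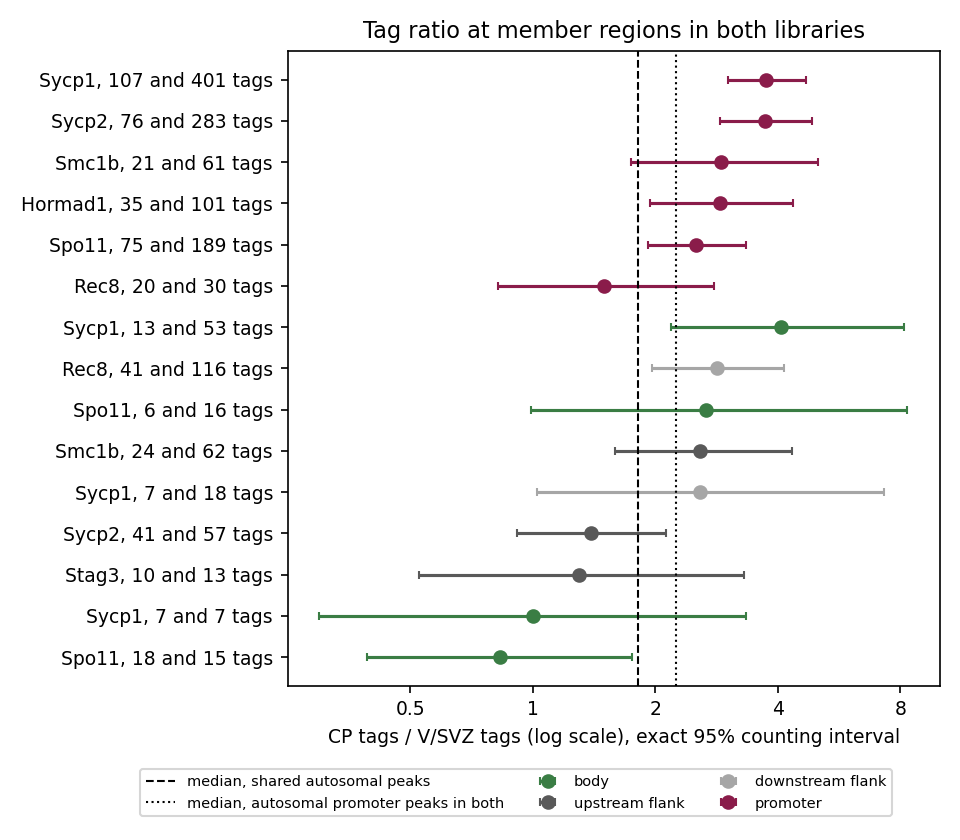
CP to V/SVZ tag ratio (log axis) at 15 member regions with a peak in both libraries, with exact 95% counting intervals and with V/SVZ and CP tags beside each gene name. Dashed and dotted lines are the medians over shared autosomal peaks (1.81) and over autosomal promoter peaks in both tissues (2.25), and the promoter intervals of Sycp1 and Sycp2 lie above both.

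The authors' direct comparisons of the libraries were read the same way. A promoter peak in the CP over V/SVZ table was listed for 5 members: Sycp1 (401 tags, score 426.92), Sycp2 (283, 239.84), Dmc1 (27, 86.80), Hormad1 (101, 72.09) and Spo11 (189, 60.63). The score is the authors' negative log10 of the caller's p times 10, and the false discovery rate given by the authors was 100% for every peak of that table. Of all genes with a control peak 3.92% had a promoter peak there, and of autosomal genes, which all members are, 1.99%. In the V/SVZ over CP table no member had a promoter peak, with a background of 1.17% (1.21% on the autosomes), so that 0 of 10 is near the background. With promoter peaks at or above the median score of the CP over V/SVZ table, 3 members were left, Sycp1, Sycp2 and Dmc1.

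Any CP over V/SVZ peak within 10 kb was assigned to 7 of the 8 members with a control peak, beside 57% of genes, and any V/SVZ over CP peak to 3, beside 54.6%. These 3 were Sycp1 (1 body peak of 7 tags), Dmc1 (1 body peak of 7) and Spo11 (a body peak of 18 tags and 2 downstream peaks of 6 each). Both downstream peaks lay upstream of the neighbouring gene Rae1. The authors' false discovery rate was 82.38% for the Sycp1 peak, 44.09% for that of Dmc1 and 46.94 to 74.02% for those of Spo11. The Sycp1 peak had 7 raw tags in each library, over 274 bp in V/SVZ and 397 bp in CP. Its ratio of 1.00 was 0.55 times the median ratio at shared autosomal peaks (interval 0.165 to 1.84 times it). These few tags do not show in which library it was higher. Smc1b and Stag3 were in the CP over V/SVZ table through small peaks away from the start, of 8 to 15 tags. Rec8 was in neither direct table.

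Other genes of the meiotic program were set beside the members. Of 14 other synaptonemal complex and axis genes, 3 had a promoter peak in V/SVZ and 5 in CP. Those with the most CP tags were Tex12, a central element protein (97 V/SVZ and 267 CP tags), Syce1, another central element protein (64 and 149), Meikin, a meiotic kinetochore protein (21 in CP only), and Hormad2, the paralog of Hormad1 (10 and 13). Of 27 other recombination genes, 5 had one in each library. They were led by the crossover MutS homolog Msh4 (86 and 203), Spata22, a partner of a meiotic single-stranded DNA binding protein (33 and 104), the X-linked crossover gene Tex11 (11 and 58) and Mcmdc2 (8 and 33). Many of these genes had no control peak at all, 5 of the 14 and 13 of the 27. Promoter peaks were listed for some genes of each functional class and not for the whole class.

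Promoter peaks were also listed for meiotic entry regulators and other germline genes. Of 5 entry genes, 2 had a promoter peak in both libraries: Dazl, an RNA-binding protein of germ cells (177 and 529 tags), and Stra8, which responds to retinoic acid (115 and 276). The Dazl and Stra8 peaks exceeded every member's promoter in V/SVZ. Of 25 other germline genes, 15 had a promoter peak in V/SVZ and 14 in CP. Mael (115 and 276), Mov10l1 (62 and 250), Piwil1 (111 and 238) and Tdrd1 (44 and 236), all of the piRNA pathway, had the most CP tags there.

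Promoter peaks over control were listed for 1 somatic counterpart of the members in V/SVZ and for none in CP. The list held 13 genes: the cohesin genes Smc1a, Smc3, Rad21, Stag1, Stag2, Wapal, Pds5a and Pds5b, the recombination genes Rad51c, Xrcc3 and Brca2, and the topoisomerase genes Top2a and Top2b. That gene was Stag2, on the X chromosome, with 7 V/SVZ tags. Stag2 was also the only one with a promoter peak in the CP over V/SVZ table, of 133 tags. This is more than in the CP promoter peaks of Hormad1, Smc1b, Rec8 and Dmc1. Of all genes with a control peak 3.92% had a promoter peak in that table, but of autosomal ones 1.99%. Such peaks were thus more frequent off the autosomes, where Stag2 lies, so its tags are no like comparison with the autosomal members. The absence of Stag2 from the CP control list, which stops at a lowest fold, does not show that its promoter lacked methylation. Smc1b against Smc1a, Stag3 against Stag1 and Stag2, and Rec8 against Rad21 pair each meiotic cohesin subunit with its somatic paralogs. Of these 3 meiotic genes 2, Smc1b and Rec8, had a promoter peak listed in CP over control, and of the 4 somatic ones none. In V/SVZ over control, Rec8 alone of the meiotic genes and Stag2 alone of the somatic ones had one. With 3.74% of protein-coding genes having a CP promoter peak, none of 4 or none of 13 is near the background. Of the 13 genes, 9 had a control peak somewhere within 10 kb, so the list was not outside the reach of the tables. No test was made of the difference between lists.

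**Figure D5:**
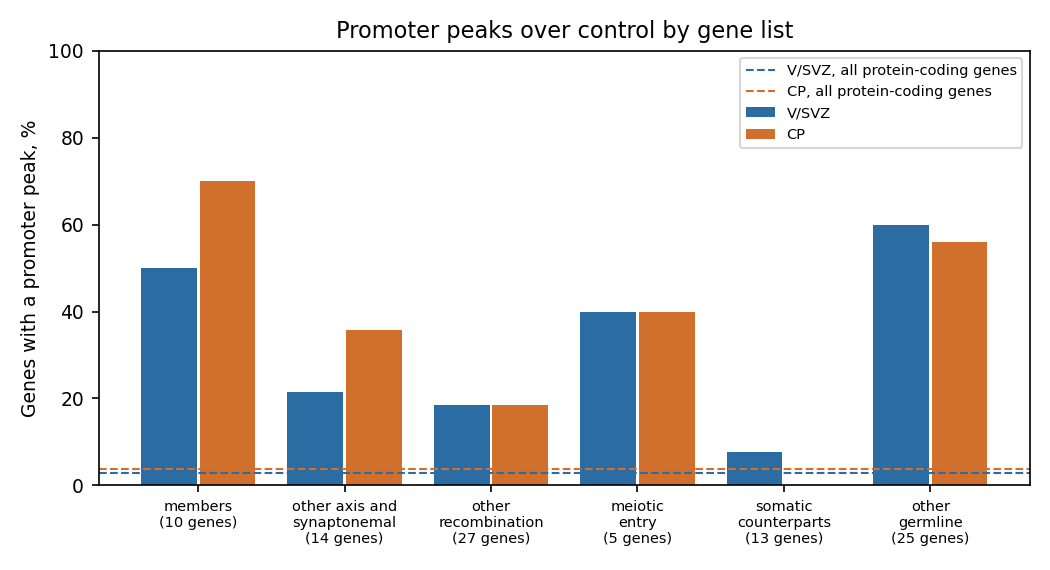
Percent of genes with a promoter peak over control in V/SVZ (blue) and CP (orange) for the members and 5 lists of other genes, with dashed lines at the shares of all protein-coding genes (2.91% and 3.74%). The members stand at 50% and 70%, and the somatic counterparts at 7.69% and 0%.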

How the data were processed

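Methylated genomic DNA from dissected V/SVZ and CP tissue (1 library each) was enriched with a methylated DNA kit and sequenced, per the labels' protocols. The submitters' processing notes name CASAVA 1.8, Bowtie with no version, and mm9. Column names match MACS, a peak caller, per the file headers, with settings not stated. In the 4 deposited tables each peak has a tag count (reads of its own library, not normalized), a significance score (negative log10 of p, times 10), a fold, which is the caller's ratio to local background, and a false discovery rate as a percent. Lengths and distances are in bp, per the file headers. The control tables list 89.2% and 77.0% of the numbered peaks.

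Rows were matched by symbol, and each region was counted 1 time per gene and table. Overlap was counted from 1 bp, and V/SVZ tags were summed over the peaks that a CP peak overlapped. Ratios carry exact (Clopper-Pearson) intervals (scipy 1.17.1, pandas 2.3.3). The overlap and interval code was tested on simulated data. Of the other lists, the text names up to 4 genes with the most CP promoter tags and all 13 somatic counterparts; a few genes first listed there are not reported here. List symbols were matched to RefSeq gene IDs by symbol or synonym. In the list of other recombination genes 29 of 30 symbols matched, and in the other lists all did. The members and lists were chosen with earlier results of these data known. Other promoter windows, fold and score limits, overlaps and references were tried.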

Additional observations from a re-analysis of the deposited data

How the results depend on the processing

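Of 41 alternative values over 12 results, 38 stayed within the limits set for them (1.5 times a count, or the exact interval of a ratio), 3 moved and none reversed. Members with a promoter peak in the CP over V/SVZ table fell from 5 to 3 at or above the median score of that table. Members with a ratio of at least 2 times the reference fell from 2 to 0 with the median of promoter peaks as the reference. They also fell to 0 with the median of peaks of the same CP tag class, an alternative chosen after seeing the data. A higher reference sets a higher limit by construction. In tags per kb, with a reference of 1.64, they numbered 3, which is within the limit: Sycp1, Sycp2 and Hormad1. Members with a promoter peak over control numbered 4 to 7 in V/SVZ and 6 to 8 in CP, highest with an upstream window of 2000 bp, which took in Stag3 in both libraries and Smc1b in V/SVZ. All 18 alternative ratios at single promoters stayed within the interval, but many of them could not change. With the largest V/SVZ peak only, or with a stricter overlap, the ratios were fixed in advance. Each of these promoters overlapped 1 V/SVZ peak, over most of its length. Those fixed values are among the 38, and only the ratios in tags per kb were free to move. No paired analysis was possible because there was 1 library per tissue, and no replicate could be left out. Depth limits the small peaks: at 6 to 20 tags the intervals of a ratio span several fold.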

Other observations

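A peak can be in a direct table and not in the listed control peaks of the same tissue. The promoter of Meioc, a meiotic entry gene, held 325 tags in the CP over V/SVZ table, and that of Taf7l, a germline transcription factor gene on X, held 680, while neither had a listed CP control peak at its promoter. The CP control list stops at a fold of 14.71. For Sycp3, Mei1 and Stag3 no promoter peak was in either direct table, whose numbering is complete. This does not show that these promoters lacked methylation, because the direct tables list only regions called between the libraries. Rec8, with a promoter peak in both control lists, was in neither direct table.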
